A study of Mus musculus with 4 samples.

Results

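Matrix metalloproteinases (MMPs), ADAMTS proteases, ADAMTS-like proteins and the tissue inhibitors of metalloproteinases (TIMPs) were examined in mouse trachea at embryonic day 16. The set holds every gene of the array whose symbol is Mmp, Adamts or Adamtsl with a number, or Timp1 to Timp4. This gave 42 of 18193 genes, namely 18 MMPs, 15 ADAMTS proteases, 5 ADAMTS-like proteins and 4 TIMPs. Of their 78 probe sets, the brightest on average was used for each gene. RNA came from 2 trachea samples labelled a1H knockout and 2 labelled wild type, all on a C57BL/6 background, with 1 Affymetrix array per sample. The design text speaks of homozygous embryos, and a1H is taken here as the T-type calcium channel gene Cacna1h. The labels do not say how the allele was made or whether a sample was 1 embryo or a pool, and p-values here reflect only how these 4 samples vary, part of which could be technical.

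MMPs are zinc-dependent endopeptidases that are made as inactive precursors and, once activated, cut collagens, elastin, laminins and other matrix proteins. ADAMTS proteases are secreted relatives with thrombospondin repeats that cut proteoglycans such as aggrecan and versican, trim procollagens or act on microfibrils, and ADAMTS-like proteins share the repeats but lack the protease domain. TIMPs bind the active site of these enzymes. In developing cartilage the balance between them sets how matrix is laid down, opened for vessels and replaced by bone.

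All values are MAS5 signals on a linear scale, scaled by the authors to a common target per array. Array medians were 426 and 320 in the labelled knockout and 459 and 416 in wild type. The geometric mean of 9 spiked control probe sets was 4744 on labelled knockout replicate 1 and 4787 on wild-type replicate 1. It was 14007 on labelled knockout replicate 2 and 11598 on wild-type replicate 2. For this reason the difference between arrays of the same number stands beside the pooled one for some of the genes described. Cacna1h itself read 981 and 631 in the labelled knockout and 630 and 538 in wild type, so it was not lower where the label says knockout. The position of its probes in relation to the deletion was not known, and all directions rest on the labels. The 15 chondrocyte markers, among them Col2a1, Acan and Sox9, were all above the level filter used below, and their summed signal was 117855 and 158654 in the labelled knockout and 154405 and 172949 in wild type. Of these 15, 12 were lower in the labelled knockout, against 44.1% of all genes above that filter. Within both replicate numbers 11 were lower, against 26.3%, and 8 (53.3%) were lower without overlap, against 14.6%. Their median log2 difference was -0.31, against 0.04 for all genes above the filter. The part of cartilage content in the protease differences was not tested. The ratio of 3' to 5' actin signal, a sign of RNA quality and amplification, was 1.90 and 1.97 in the labelled knockout and 1.69 and 1.66 in wild type, and that of Gapdh 1.36 and 1.61 against 1.26 and 1.40. The actin ratios did not overlap between groups, and their part in the differences was not tested. Markers of neighbouring organs were also present. The summed thymus list read 43512 and 18456 in the labelled knockout and 6305 and 18525 in wild type, the salivary gland list 28022 and 13880 in the labelled knockout and 2424 and 84520 in wild type, and the placenta list 872 and 160949 in the labelled knockout and 1252 and 1245 in wild type.

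The first pattern was which of the genes were above a common level. A gene was tested where its mean log2(signal + 16) over the 4 arrays reached the median over non-control probe sets, a signal of 397. Of the 42 genes, 27 passed, and 15 (35.7%) did not, the same share as the 35.7% of all genes below this level. The 15 were not spread evenly over the families. All 4 TIMPs passed, as did 11 of 15 ADAMTS proteases, 4 of 5 ADAMTS-like genes and 8 of 18 MMPs. The MMPs below the filter were mostly neighbours in the genome. In the RefSeq assembly GRCm38.p6, 10 MMP genes lie next to each other on chromosome 9, in the order Mmp13, Mmp12, Mmp1b, Mmp3, Mmp1a, Mmp10, Mmp8, Mmp27, Mmp20 and Mmp7. The 9 of them in the set had 0 members above the filter, and their signals ran from 2.16 to 225 over all arrays. The only MMP below the filter outside this run was Mmp17, a membrane-anchored enzyme.

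**Figure D1:**
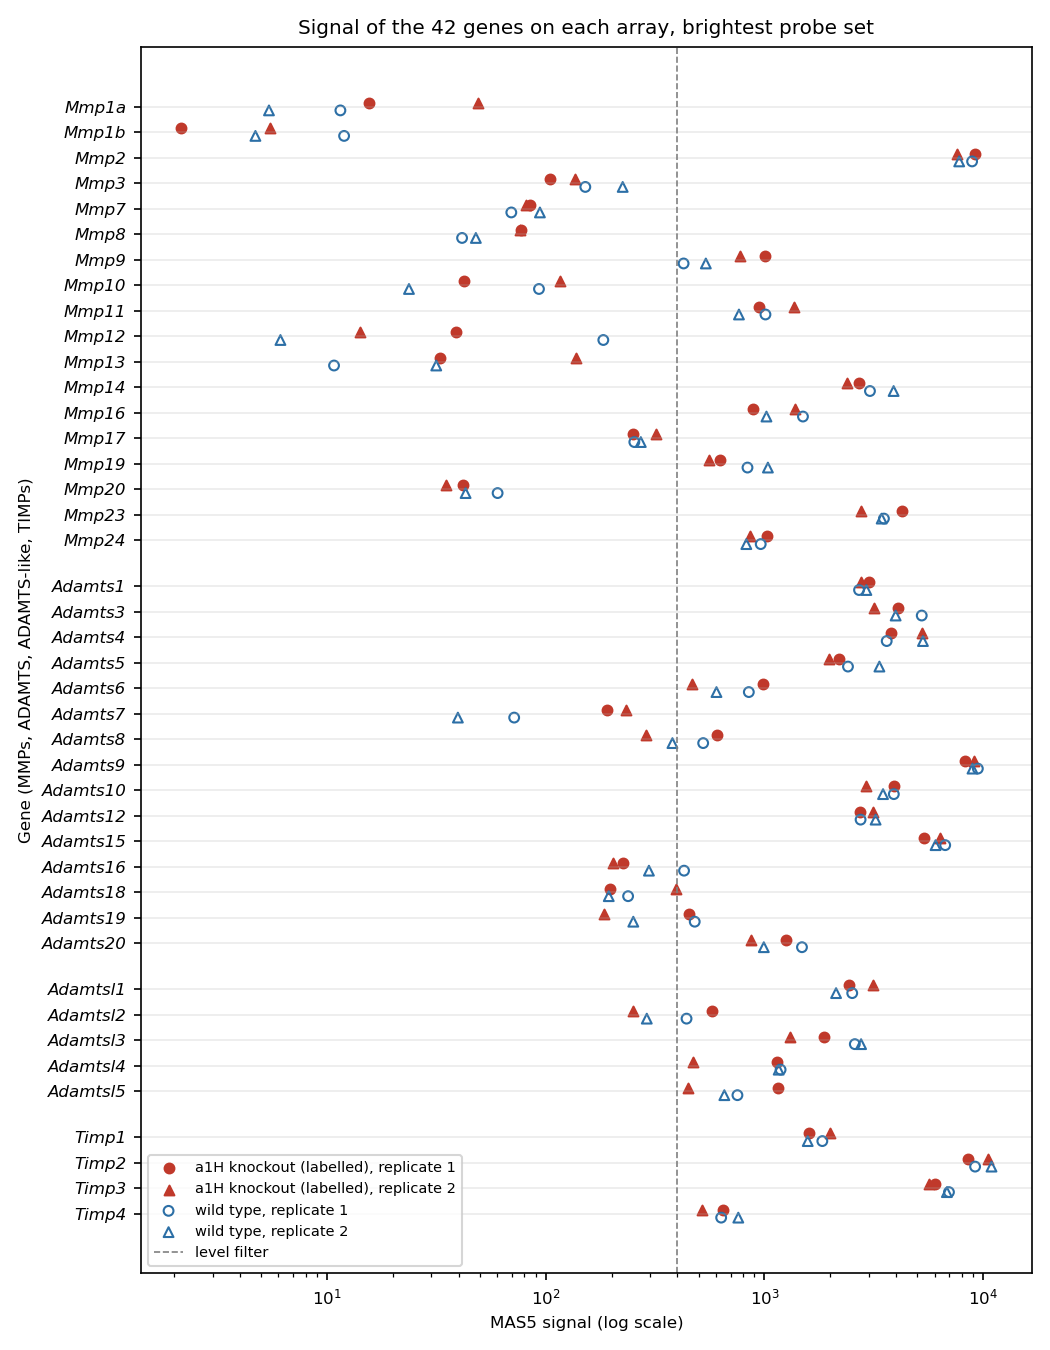
MAS5 signal on a log scale for each of the 42 genes, brightest probe set, with filled red symbols for the labelled knockout and open blue symbols for wild type, circles for replicate 1 and triangles for replicate 2. The dashed line is the level filter at a signal of 397, and Mmp1a, Mmp1b, Mmp3, Mmp7, Mmp8, Mmp10, Mmp12, Mmp13 and Mmp20 lie left of it on every array.

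Most promoters of these neighbouring genes hold other motif letters than most of the promoters that could be searched for genes above the filter. The stretches just before the start site are shown for 4 genes of the run and 3 genes above the filter, chosen because they hold such matches. RefSeq promoter windows were found for 27 of the 42 genes. They are given for the 100 bases before the start, on build GRCm38.p6 and the plus strand, with 3 kinds of match in capitals: AP-1 (TGAGTCA or its reverse TGACTCA), the TATA motif (TATAAA or TTTATA) and the GC box (GGGCGG or CCGCCC).
Mmp13, chr9:7272414-7272513: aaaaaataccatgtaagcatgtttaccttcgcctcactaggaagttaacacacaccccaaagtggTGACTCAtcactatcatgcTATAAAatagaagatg
Mmp3, chr9:7445722-7445821: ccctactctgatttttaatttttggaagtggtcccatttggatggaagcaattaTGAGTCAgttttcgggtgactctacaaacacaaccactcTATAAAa
Mmp10, chr9:7502242-7502341: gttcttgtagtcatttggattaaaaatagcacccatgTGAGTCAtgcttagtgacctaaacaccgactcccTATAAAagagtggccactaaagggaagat
Mmp1a, chr9:7464041-7464140: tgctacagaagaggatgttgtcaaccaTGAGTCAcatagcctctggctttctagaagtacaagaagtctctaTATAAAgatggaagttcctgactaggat
Mmp14, chr14:54431498-54431597: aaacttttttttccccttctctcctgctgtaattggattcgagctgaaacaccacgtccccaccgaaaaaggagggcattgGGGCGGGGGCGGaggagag
Timp3, chr10:86300312-86300411: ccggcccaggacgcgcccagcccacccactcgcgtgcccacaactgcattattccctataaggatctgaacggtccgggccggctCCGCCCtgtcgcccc
Adamtsl3, chr7:82335594-82335693: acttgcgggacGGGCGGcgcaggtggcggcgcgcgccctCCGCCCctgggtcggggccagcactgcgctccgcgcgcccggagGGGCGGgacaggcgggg

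AP-1 is the site of the Fos and Jun transcription factors, and in many species the promoters of inducible collagenases and stromelysins are known for it. Within 250 bases before the start, on both strands, an AP-1 match was present in 7 of the 9 genes of the chromosome 9 run. It began between 35 and 93 bases before the start. In the 16 tested genes that have a window there were 0 matches. The other tested genes, among them Mmp2, Mmp9, Mmp16, Mmp19, Adamts4 and Adamts5, have no window and were not searched. Over all 32851 mouse windows of this length, 4.46% hold such a match. For each motif a gene was counted if any of its windows matched, whereas these shares are per window. The run genes are neighbours of the same family, so they are not independent draws to set against a share. The TATA motif was found in 7 of the 9 run genes and in 1 of the 16 tested genes, Adamts1, against 12.4% of all windows. The GC box was found in 0 of the 9 and in 13 of the 16, against 32.7% of all windows. The 2 genes with a window that were below the filter outside the run, Adamts18 and Adamtsl2, both held a GC box and had 0 AP-1 matches, as most tested genes did. Mmp8 of the run and the tested genes Adamts12, Mmp23 and Timp4 had 0 matches of any kind. Matches of different kinds shared 0 bases in these windows. These are letter matches in a short window and say nothing of binding. Of the genes of these factors, Jun read 6873 and 7455 in the labelled knockout and 7848 and 9133 in wild type, and Fos read 2202 and 2811 against 1868 and 3839, whereas Fosl1, a further Fos family gene, read at most 29.8.

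The comparison of labelled knockout with wild type asks which of these enzymes and inhibitors differ in the mutant trachea. No member passed the test. In the limma fit over 11694 genes, 0 of the 27 tested members passed an adjusted p of 0.05 (Benjamini-Hochberg) and the smallest was 0.875, as for all genes, of which 0% passed. At an unadjusted p under 0.05 there were 2 members, Adamtsl3 and Mmp9, against 4.58% of all tested genes. The groups did not overlap for 7 of the 27, or 25.9%, against 36.1% of all tested genes. Of these 7, 6 were lower in the labelled knockout (14.6% of all tested genes) and 1 was higher (21.5%).

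Small differences leaned to the lower side. Of the 27, 18 were lower in the labelled knockout, against 44.1% of all tested genes, but only 8 were lower when each array was centred on its median, a scaling that moved the median of all tested genes to 0.27 from 0.04 on the log2 scale. The members' median log2 difference was -0.08, with -0.05 within replicate number 1 and -0.19 within replicate number 2. It lay 0.12 below the median of all tested genes. Median centring moves the difference of every gene by the same amount, so it cannot change this gap and is no check of it. Within both replicate numbers, 10 of the 27 were lower, against 26.3% of all tested genes, and 2 were higher, against 4205 of all 11694. The remaining members changed sign between the numbers. A log2 difference of at least 0.5 in size was seen in 4 members, namely Adamtsl3, Mmp9, Adamtsl4 and Mmp19, against 9.34% of all tested genes. With no filter, 24 of the 42 genes were lower, with a median of -0.08 against -0.02 for all genes, a gap of -0.06. SEs of the log2 differences ran from 0.17 to 0.45, with only 2 arrays per group limiting the precision. In bulk tissue, fewer cells of a type and less RNA per cell cannot be told apart.

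**Figure D2:**
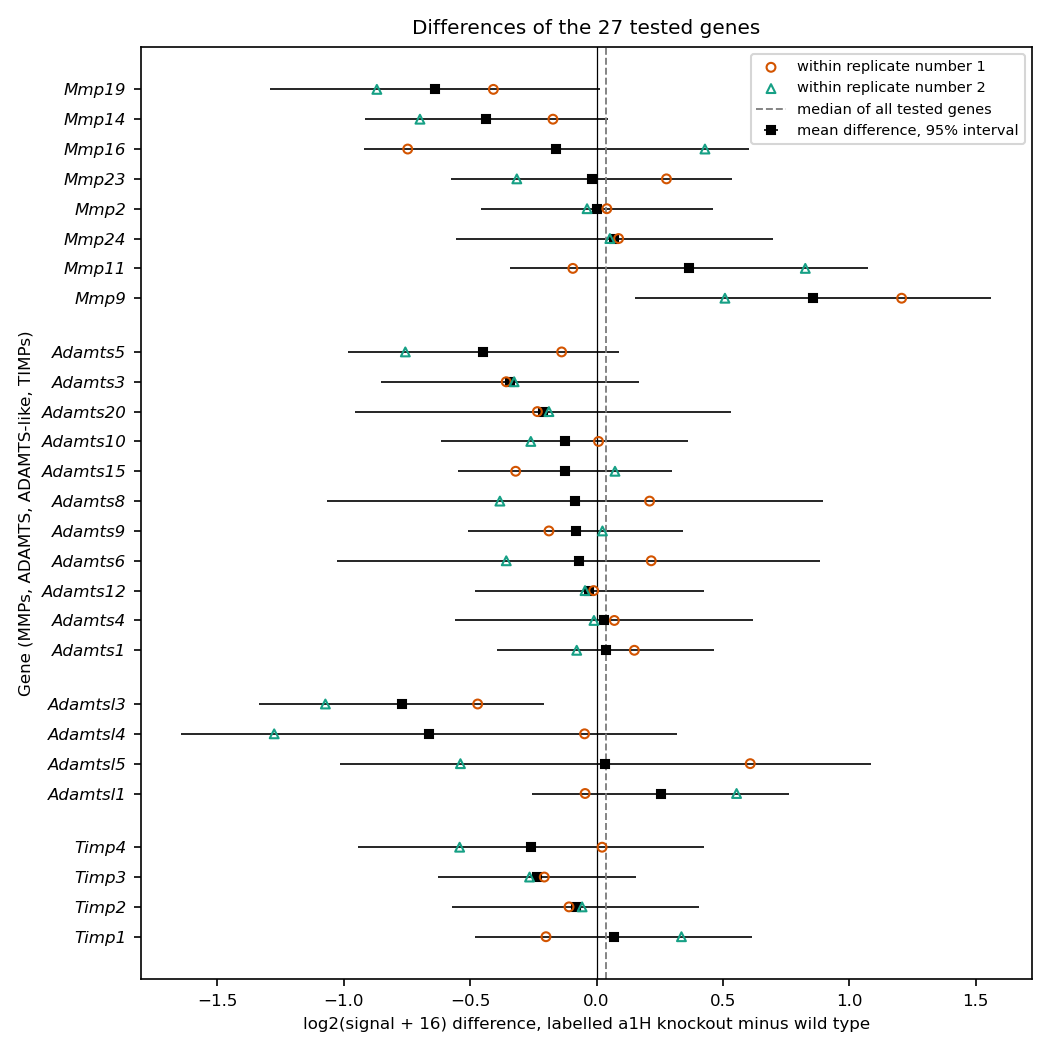
Difference in log2(signal + 16), labelled a1H knockout minus wild type, for the 27 tested genes by family, with squares and bars for the limma estimate and its 95% interval before adjustment, and open symbols for the differences within replicate numbers 1 and 2. The intervals of Adamtsl3 and Mmp9 leave out 0 on opposite sides. Within both numbers 10 of the 27 genes were lower and 2 were higher. All others, among them Mmp16, Adamtsl5 and Timp1, lie on opposite sides of 0 within the 2 numbers.

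The gelatinases cut denatured collagen and basement membrane collagen, and both were measured. Mmp9, gelatinase B, which is made by osteoclasts, neutrophils and trophoblast and acts where cartilage is resorbed, read 1006 and 774 in the labelled knockout and 427 and 539 in wild type. Both labelled knockout arrays were above both wild-type arrays. The means were 890 ± 164 and 483 ± 79.6 (SD, n = 2 each), 1.81-fold higher on the log2(signal + 16) scale. The log2 difference was 0.86 (SE 0.30), with an unadjusted limma p of 0.024, with 1.21 and 0.51 within replicate numbers 1 and 2. It stayed between 0.67 and 1.04 when each array was left out in turn. Its second probe set, below the filter, read 255 and 285 against 121 and 201, again without overlap. Mmp2, gelatinase A of mesenchymal cells, read 9143 and 7561 in the labelled knockout and 8890 and 7762 in wild type. The means were 8352 ± 1119 and 8326 ± 798 (SD, n = 2 each). Its log2 difference was 0.0013 (SE 0.19), with a 95% interval of -0.46 to 0.46 and an unadjusted limma p of 0.995, and its second probe set gave 0.32.

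Cells that could carry Mmp9 RNA were looked at through their markers. Of these, 5 of the 12 neutrophil and mast cell markers and 5 of the 7 osteoclast markers were below the filter. The osteoclast markers Ocstamp and Dcstamp read at most 13.7 and 19.4, and the brightest of that list was Ctsk, at 1006 and 1422 in the labelled knockout and 1042 and 1136 in wild type. The sums below thus rest mainly on the brighter markers. The 12 neutrophil and mast cell markers summed to 10277 and 17880 in the labelled knockout and 10187 and 17314 in wild type. The 7 osteoclast markers summed to 2000 and 2362 against 2016 and 2309, and the 10 macrophage markers to 25197 and 32990 against 24202 and 29434. In these 3 lists the arrays of the 2 groups overlapped. Of the 10 macrophage markers, 4 were higher and 6 lower in the labelled knockout (median difference of -0.02 on the log2 scale). The extremes were Csf1r, a receptor of macrophages and of trophoblast, at 4070 and 7104 against 3090 and 3612 (0.68), and the chemokine receptor Cx3cr1 at 432 and 294 against 540 and 608 (-0.66). The thymus and placenta sums given above were highest on labelled knockout replicate 1 and replicate 2. The part of any of these cells in the Mmp9 difference was not tested.

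Mmp13, the collagenase of hypertrophic chondrocytes and osteoblasts, stayed below the filter at 32.9 and 137 in the labelled knockout and 10.8 and 31.6 in wild type. The array with its highest value, labelled knockout replicate 2, also had the highest signals of the genes on the hypertrophic cartilage and bone list. Ibsp, the bone sialoprotein gene, read 175 and 5780 in the labelled knockout and 126 and 123 in wild type. Col10a1, the collagen of hypertrophic cartilage, read 21.2 and 423 against 122 and 9.31, and Sp7, the osteoblast transcription factor, read 326 and 906 against 398 and 331. Alpl, the alkaline phosphatase of mineralising tissue, was above the filter on every array, at 787 and 1149 against 750 and 571. The part of bone tissue in the Mmp13 values was not tested. The other collagenases were also below the filter: Mmp8, of neutrophils, read 77.1 and 76.1 against 41.5 and 48.0, and Mmp1a and Mmp1b did not exceed 49.2. The stromelysins Mmp3 and Mmp10, the matrilysin Mmp7, the macrophage elastase Mmp12 and the enamel protease Mmp20 ranged from 6.13 to 225 over all arrays. Mmp12 was the most uneven of these, at 38.8 and 14.1 in the labelled knockout and 183 and 6.13 in wild type.

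Mmp14, the membrane-anchored enzyme that cuts fibrillar collagen and activates the Mmp2 precursor with Timp2 as its partner, read 2690 and 2391 in the labelled knockout and 3034 and 3892 in wild type. The groups did not overlap, with means of 2541 ± 211 and 3463 ± 606 (SD, n = 2 each). The log2 difference was -0.44 (SE 0.20), with an unadjusted limma p of 0.069, and it was -0.17 and -0.70 within replicate numbers 1 and 2. All 3 of its probe sets were lower in the labelled knockout and 2 of them did not overlap, while the remaining one gave -0.06. The estimate ran from -0.61 without wild-type replicate 1 to -0.26 without wild-type replicate 2. Mmp16, another membrane-anchored enzyme, read 887 and 1380 in the labelled knockout and 1499 and 1021 in wild type on its brightest probe set. On the log2 scale it differed by -0.16, with -0.75 and 0.43 within the replicate numbers, so its sign turned with the number. Its next probe set read 480 and 496 in the labelled knockout and 908 and 748 in wild type, a difference of -0.74, and all 4 of its probe sets were lower. Mmp24, a further membrane-anchored enzyme, read 1022 and 857 against 961 and 826, a difference of 0.07. Mmp17, below the filter, read 251 and 321 against 254 and 272.

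Among the remaining MMPs, Mmp19 read 626 and 560 in the labelled knockout and 836 and 1037 in wild type. Both labelled knockout arrays were below both wild-type arrays, with means of 593 ± 46.6 and 936 ± 142 (SD, n = 2 each). The log2 difference was -0.64 (SE 0.28), with an unadjusted limma p of 0.054, with -0.41 and -0.87 within the replicate numbers and a range of -0.79 to -0.49 when each array was left out. Mmp11, the furin-activated stromelysin-3 of remodelling mesenchyme, read 945 and 1367 against 1010 and 764, a log2 difference of 0.37 that was -0.09 and 0.83 within the numbers. Mmp23, a membrane-tethered enzyme, read 4260 and 2755 against 3515 and 3432, with differences of 0.28 and -0.32 within the numbers.

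All 7 measured ADAMTS proteases that cut aggrecan, versican or related proteoglycans passed the filter. Adamts5, the main aggrecanase of mouse cartilage, read 2186 and 1977 in the labelled knockout and 2408 and 3351 in wild type, without overlap. The means were 2081 ± 148 and 2879 ± 667 (SD, n = 2 each), and the log2 difference was -0.45 (SE 0.23), with an unadjusted limma p of 0.089. The spread in wild type was wide, and the difference was -0.14 within replicate number 1 and -0.76 within replicate number 2. Without wild-type replicate 2 it was -0.21. All 4 of its probe sets were lower in the labelled knockout, from -0.79 to -0.12. Adamts4, the other aggrecanase, read 3800 and 5261 against 3619 and 5299. Its replicates differed from each other more than the groups did, with means of 4530 ± 1033 and 4459 ± 1188 (SD, n = 2 each), and its log2 difference was 0.03 (SE 0.25, unadjusted limma p of 0.909).

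Adamts9, a versican-cutting protease of embryonic mesenchyme and vessels, read 8285 and 9071 in the labelled knockout and 9444 and 8926 in wild type, with means of 8678 ± 556 and 9185 ± 366 (SD, n = 2 each). The log2 difference was -0.08 (SE 0.18), with a 95% interval of -0.51 to 0.34 and an unadjusted limma p of 0.660. Its other 2 probe sets gave -0.39 and -0.60 with overlapping groups, and the mean over its probe sets moved the difference to -0.36. Adamts15, another versican-cutting protease, read 5361 and 6366 against 6698 and 6052. Its groups overlapped, with means of 5864 ± 710 in the labelled knockout and 6375 ± 457 in wild type (SD, n = 2 each), and the log2 difference was -0.12 (SE 0.18, unadjusted limma p of 0.513). Adamts1 read 3002 and 2766 against 2705 and 2922, and its log2 difference was 0.04. Adamts8 read 609 and 287 against 524 and 380, with a difference of -0.09. Adamts20, which cuts versican in embryonic skin, read 1259 and 869 against 1484 and 993, with a difference of -0.21. In these 3 genes the groups overlapped. The main targets of this family gave no clear difference either: Acan, the aggrecan gene, had -0.22 (SE 0.27), and Vcan, the versican gene, had -0.06 (SE 0.21).

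Adamts3, which removes the amino-terminal propeptide of procollagens and takes part in activating the lymphatic growth factor VEGF-C, was the only procollagen peptidase in the set. It read 4080 and 3168 in the labelled knockout and 5232 and 3976 in wild type. The highest labelled knockout value exceeded the lowest wild-type value, but within replicate numbers the differences were alike at -0.36 and -0.33, and the pooled value was -0.34 (SE 0.22). Adamts10 and Adamts6 act on fibrillin microfibrils. Adamts10 read 3921 and 2905 against 3901 and 3482, and Adamts6 read 988 and 467 against 848 and 603, with log2 differences of -0.13 and -0.07. Adamts12, which can cut the cartilage protein encoded by Comp, read 2727 and 3119 against 2750 and 3221, a difference of -0.03 with a 95% interval of -0.48 to 0.42. In these 3 genes the groups overlapped too. Adamts7, its close relative, was below the filter at 191 and 234 in the labelled knockout and 71.8 and 39.7 in wild type, and Adamts16 at 225 and 203 against 429 and 296. Neither overlapped between groups, and dim MAS5 signals are noisy. Adamts18 ranged from 194 to 396 and Adamts19 from 184 to 480, with overlapping groups.

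The ADAMTS-like genes held the member with the smallest unadjusted p. Adamtsl3 read 1863 and 1305 in the labelled knockout and 2587 and 2764 in wild type. Its groups did not overlap, with means of 1584 ± 394 and 2676 ± 125 (SD, n = 2 each), 1.71-fold higher in wild type on the log2(signal + 16) scale. The log2 difference was -0.77 (SE 0.24), with an unadjusted limma p of 0.014 and an adjusted p of 0.875, and it was -0.47 and -1.07 within the replicate numbers. Adamtsl3 has 1 probe set. Without labelled knockout replicate 1 the difference was -1.03, in a fit where the lone labelled knockout array is taken to vary like wild type. That lone array is the one with the high placenta sum given above. Adamtsl4, which binds fibrillin microfibrils and in humans is needed for the lens ligament, read 1146 and 470 in the labelled knockout and 1185 and 1161 in wild type. Its log2 difference of -0.66 (SE 0.42) came from labelled knockout replicate 2, being -0.05 within replicate number 1 and -0.03 without that array. Without labelled knockout replicate 1 the Adamtsl4 difference was -1.29. Its means were 808 ± 478 and 1173 ± 16.7 (SD, n = 2 each), with an unadjusted limma p of 0.155 over all 4 arrays. Adamtsl1 read 2439 and 3125 against 2518 and 2124, a difference of 0.25. The other 2 probe sets of Adamtsl1, both below the filter, gave -0.14 and -0.81, and the mean over its probe sets turned the difference to -0.23. Adamtsl5 read 1155 and 446 against 752 and 655, a difference of 0.03. On their brightest probe sets both changed sign between the replicate numbers. Adamtsl2, a microfibril-associated gene, was below the filter with a range of 252 to 575 and overlapping groups.

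TIMPs are the inhibitors that the MMPs and several ADAMTS proteases share. Timp3, which binds to the matrix and also inhibits aggrecanases, read 6035 and 5670 in the labelled knockout and 6969 and 6818 in wild type. The groups did not overlap and each varied little, with means of 5852 ± 258 and 6893 ± 107 (SD, n = 2 each). The log2 difference was small, at -0.24 (SE 0.17, unadjusted limma p of 0.196), with a 95% interval of -0.63 to 0.15, and it was -0.21 and -0.27 within the replicate numbers. All 4 Timp3 probe sets were lower in the labelled knockout, with log2 differences from -0.58 to -0.21, and 3 of them did not overlap. When arrays were centred on their medians the difference was 0.00, where that of all tested genes was 0.27.

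Timp2, the inhibitor that also bridges Mmp14 and the Mmp2 precursor, read 8505 and 10477 in the labelled knockout and 9176 and 10903 in wild type, a log2 difference of -0.08 (SE 0.21, unadjusted limma p of 0.700). The means were 9491 ± 1394 and 10039 ± 1221 (SD, n = 2 each). Its 6 probe sets disagreed. The second brightest read 6517 and 7696 against 8502 and 10739, and a further one read 3787 and 3921 against 5418 and 6167, a difference of -0.58 with an unadjusted limma p of 0.013 and an adjusted p of 0.872 over 22519 probe sets. Another read 3914 and 3922 against 3758 and 3425, which was higher in the labelled knockout without overlap. In all, 4 of the 6 were lower without overlap and 1 was higher without overlap. Of the 4 probe sets above the filter, 2 were lower and 1 was higher without overlap. The shares of all probe sets above the filter were 18.5% and 17.2%. Probe sets of a gene share transcripts and are not independent. Timp1 read 1598 and 1993 against 1838 and 1576, with overlapping groups and a log2 difference of 0.07, and Timp4 read 644 and 516 against 634 and 759, with a difference of -0.26 (SE 0.29). The second Timp4 probe set, below the filter, read 210 and 107 against 382 and 287, a difference of -1.06 without overlap. Timp1, Timp3 and Timp4 lie inside the genes Syn1, Syn3 and Syn2 in the RefSeq annotation, and Timp2 has no such host.

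**Figure D3:**
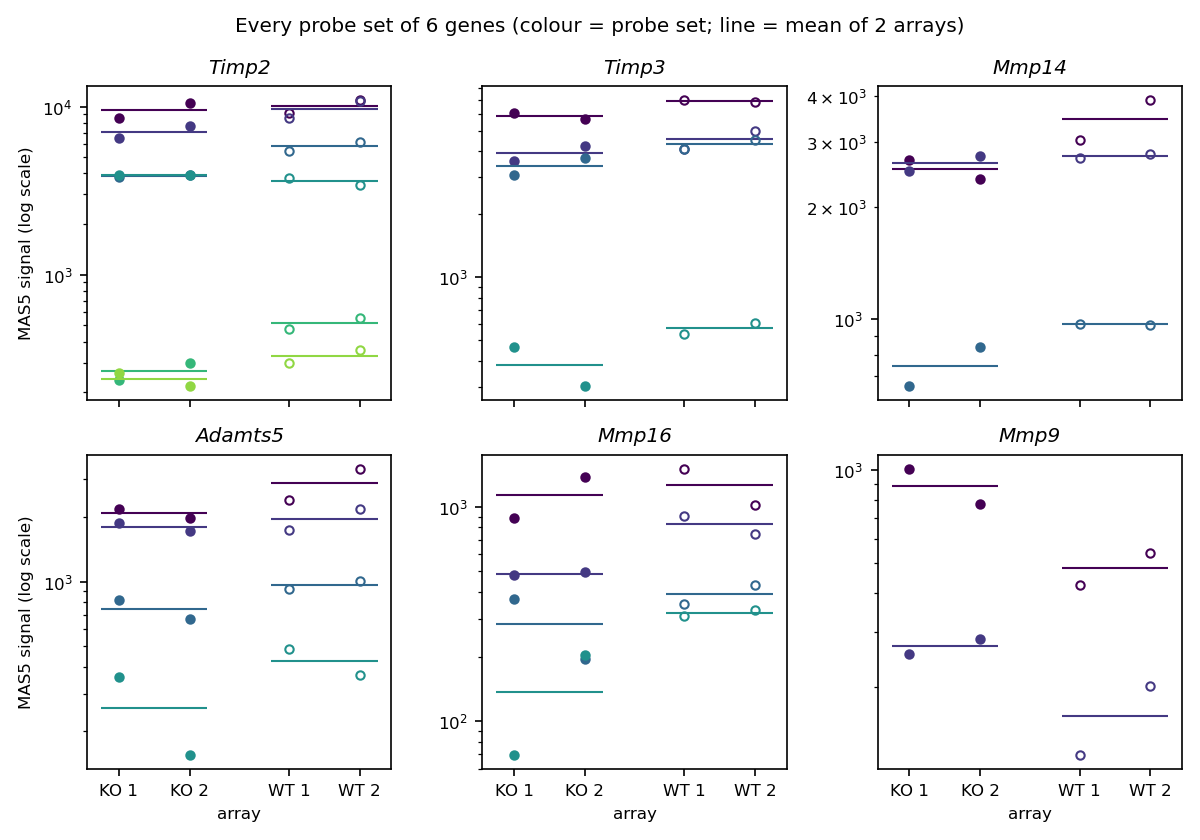
MAS5 signal on a log scale for every probe set of Timp2, Timp3, Mmp14, Adamts5, Mmp16 and Mmp9, with filled points for the 2 labelled knockout arrays on the left, open points for the 2 wild-type arrays on the right, and a line at each mean. All 4 Timp3 lines and both Mmp9 lines shift the same way between groups, whereas 1 of the 6 Timp2 lines shifts against the others.

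Over the 42 member probe sets above the filter, 30 were lower in the labelled knockout, against 52.8% of all 22519 such probe sets. Without overlap, 13 (31.0%) were lower, against 18.5% of all, and 2 were higher, against 17.2%. Of the 13, 9 belong to 4 genes, namely Timp3, Timp2, Mmp14 and Adamts5. No member probe set passed the adjusted threshold, and 0 of all 22519 did, with 919 at an unadjusted p under 0.05.

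Other regulators of these proteases were read from a list of activators, clearance receptors and further inhibitors, of which 22 of 28 genes were tested and 0 passed. Of these, 13 were higher and 9 lower, with a median log2 difference of 0.06 against 0.04 for all tested genes. Reck, a membrane-anchored inhibitor of MMPs in mesenchyme and vessels, read 5947 and 5208 in the labelled knockout and 7257 and 8183 in wild type, without overlap. Its log2 difference was -0.47 (SE 0.18), with an unadjusted limma p of 0.033. A2m, the protease-trapping macroglobulin, read 352 and 325 against 497 and 753, a difference of -0.83 (SE 0.33). Plaur, the receptor of the urokinase plasminogen activator, read 618 and 457 against 853 and 844, a difference of -0.66. Plat, the tissue plasminogen activator, read 1760 and 2045 against 1674 and 1265, a difference of 0.38. These 4 had the smallest unadjusted p of the list, and their groups did not overlap. Over the list, 9 of the 22 tested genes (40.9%) did not overlap, against 36.1% of all tested genes. Plg, the plasminogen gene, and Plau, the urokinase gene, did not pass the filter.

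**Figure D4:**
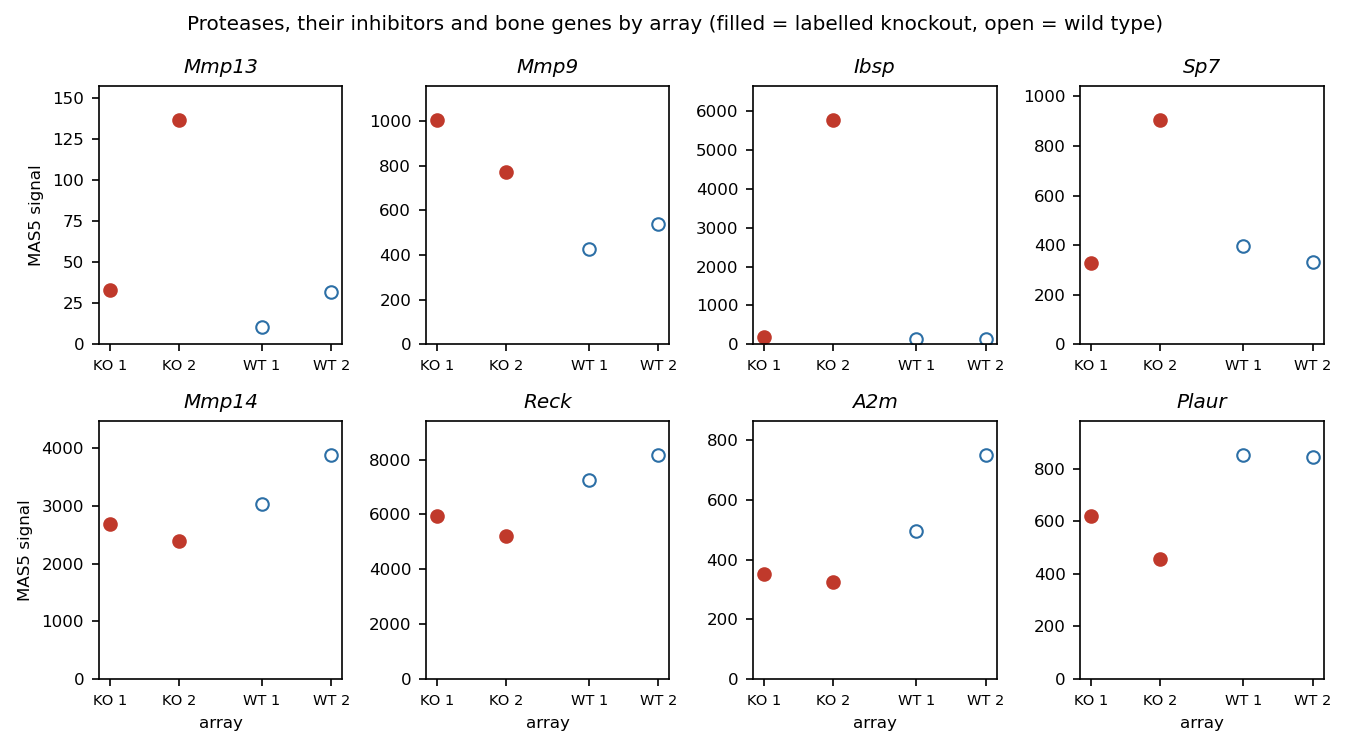
MAS5 signal on a linear axis from 0 for Mmp13, Mmp9, Ibsp, Sp7, Mmp14, Reck, A2m and Plaur, with filled points for the labelled knockout arrays on the left and open points for the wild-type arrays on the right. Mmp13, Ibsp and Sp7 are highest on labelled knockout replicate 2, Mmp9 is higher on both labelled knockout arrays, and Mmp14, Reck, A2m and Plaur are lower on both.

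The matrix proteins that these enzymes cut were read only as RNA of their genes, with 21 of 23 genes tested and 0 passing. Protein and its cleavage were not measured. Of the 21 genes, 8 were higher and 13 lower, against 44.1% of all tested genes lower. Their median was -0.05, against 0.04 for all tested genes. Fbn2, the fibrillin of embryonic microfibrils, read 17370 and 14493 in the labelled knockout and 20413 and 21867 in wild type, a log2 difference of -0.41 (SE 0.25). Lum, a leucine-rich proteoglycan of collagen fibrils, read 7855 and 8427 against 9844 and 9363, a difference of -0.24. Nid1, which links basement membrane networks, read 14032 and 14076 against 13747 and 20406, a difference of -0.25 with overlapping groups. Tnc, the tenascin of perichondrium and developing airways, read 7964 and 8066 against 6754 and 7305, a difference of 0.19.

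Of the transcription factors and signals known to act on MMP genes, 12 of 18 were tested and 0 passed, with 6 higher, 6 lower and a median of 0.01. Il1r1, the interleukin-1 receptor, read 2990 and 3068 in the labelled knockout and 3577 and 4546 in wild type, a log2 difference of -0.41 (SE 0.19). Fosl2, a Fos family factor, read 6141 and 5890 against 6749 and 7549, a difference of -0.25. Tgfb1, a growth factor that raises matrix synthesis, read 540 and 518 against 409 and 383, a difference of 0.40. Jun, with the values given above, had -0.24. These were the 4 of the 12 tested genes (33.3%) whose groups did not overlap, against 36.1% of all tested genes. The cytokines Il1b, Il6 and Tnf did not pass the filter.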

How the data were processed

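The authors deposited an intensity for each probe set and array, which is linear and comes from MAS5 per the submitters' processing notes, its version not given in the sources used here. Their trimmed mean (2% from each end) was 1500 on every array. Per the labels' protocols, RNA was amplified as cDNA before biotin labelling, which can favour 3' ends. Groups and replicate numbers came from sample titles. Of 45101 probe sets, 34945 were paired with exactly 1 gene by the platform annotation, and symbols were updated through RefSeq GRCm38.p6. For each gene the probe set brightest by mean log2(signal + 16) was kept, and the 11694 genes whose mean reached the median over non-control probe sets were tested.

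Fits used limma 3.58.1 (R 4.3.3; functions lmFit and eBayes), with an intensity trend and genotype as the only term over all 4 arrays, and Benjamini-Hochberg adjustment over all tested genes. SDs are over 2 arrays. An exact permutation test of 2 against 2 cannot go below p = 0.333. Scripts were tested on simulated data. Members and lists were chosen with earlier results of these data known. Means, SDs and p are given for the 6 members with the smallest unadjusted p and the 6 brightest, and the 4 genes with the smallest p in each further pathway list are named; Plg, Plau, Fos, Fosl1, Acan, Vcan, Csf1r, Cx3cr1, the bone genes and the cytokines were named after their values were seen. Marker lists of endothelium, smooth muscle, fibroblasts, epithelium, nerve, muscle, thyroid and blood were also summed and are not described. Promoter sequences are from RefSeq (GRCm38.p6). Figures were drawn with matplotlib 3.10.9.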

Additional observations from a re-analysis of the deposited data

How the results depend on the processing

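With the deposited scaling, 0 genes and 0 members passed. Both counts were also 0 with a pseudocount of 1 or 64, with no filter, above the 75th percentile, after quantile normalisation, after median centring, without the intensity trend and with probe sets of a gene averaged, and, as an alternative added after seeing the data, 0 of all probe sets above the filter passed. With the replicate number as a replicate block, 0 genes and 0 members passed. The smallest adjusted limma p was 0.158 over all genes and 0.411 over members. In this balanced design the block cannot change a log2 difference, so the members' median is -0.08 there by construction. Same-numbered arrays deviated together with a correlation of 0.32 over 11694 genes, but with only 2 pairs this does not show that the numbers pair the samples. Leaving out each array in turn gave 0 to 492 genes and 0 to 2 members past the threshold, with 492 genes and both members (Adamtsl3 and Adamtsl4) without labelled knockout replicate 1, 104 genes without labelled knockout replicate 2 and 1 gene when wild-type replicate 2 was left out. The members' median log2 difference ran from -0.28 to -0.042 over these fits, with the lowest value without labelled knockout replicate 1. It was -0.23 with probe sets of a gene averaged, where 21 members were tested, and 0.15 after median centring, where the median of all tested genes was 0.27. The cause of these shifts was not tested. Of the 27 members, 13 kept their sign in all 4 fits that leave out an array. All of the settings tested 14 members, of which 5 kept their sign throughout: Mmp14, Adamts3, Adamts5, Adamtsl3 and Timp3. For Timp3 the value was only -0.0039 after median centring. A further 5 kept their sign wherever they were tested. Of these, Mmp11 and Adamtsl4 were not tested above the 75th percentile, and Mmp9, Mmp19 and Timp4 neither there nor with probe sets averaged. The filters, the intensity trend and the replicate block cannot change a log2 difference, so these settings are no check of its sign. After median centring 10 members changed sign, and after quantile normalisation 3 did. No detection calls were used, so dim signals carry no lower limit of detection.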
